A study of Mus musculus with 6 samples.

Results

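Heme is built and broken down by a short series of enzymes, and 9 of their genes were examined among the 24422 gene symbols of the deposited tables: Alas1, Alas2, Alad, Uros, Urod, Cpox, Ppox, Fech and Hmox1. They were chosen by role and not by their values, though earlier results of these data were known. Both isoforms of the first enzyme are included, 7 of the 8 steps of synthesis are covered by 8 enzymes, and Hmox1 opens the breakdown of heme. RNA was sequenced from the kidneys of 3 FeD pups, whose C57BL/6 dams ate a synthetic diet of about 2 to 6 ppm iron, and of 3 control pups, whose C57BL/6 dams ate a diet of 220 ppm iron. Dams were 8 weeks old when the diets were assigned, were mated about a month later by the labels (the study's methods give a shorter time), and stayed on their diet until the pups were taken at postnatal day 15. All 6 pups were wild type C57BL/6 mice, and the groups differ by the maternal diet, in which the FeD food also had another base than the control food, so iron and the rest of the diet cannot be told apart. Neither litter nor sex is given for a pup, and diet and litter cannot be told apart. The question of the comparison is how kidney transcripts differ when the whole animal, and not a single kidney lineage, grows up short of iron.

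Heme is an iron ion held in a porphyrin ring. Synthesis starts and ends in the mitochondrion: ALAS joins glycine and succinyl-CoA, the middle enzymes build and trim the ring in the cytosol, and ferrochelatase inserts the iron at the end. Most heme of the body is made in red cell precursors for hemoglobin, but every cell with mitochondria makes its own for cytochromes, and the proximal tubule of the kidney also takes up filtered heme proteins and breaks heme down with heme oxygenase.

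In FeD kidneys, 4 of the 9 transcripts were lower and 1 was higher past an adjusted P of 0.05 in edgeR's quasi-likelihood test over 15145 genes. Uros fell to a ratio of 0.379 and Alad to 0.422 of control, and these 2 also passed a 2-fold change. Ppox and Urod fell less, Fech rose slightly, and Alas1, Alas2, Cpox and Hmox1 did not pass the test. The share of all tested genes that passed was 23.3% lower and 22.4% higher, or 5.69% lower and 4.34% higher when a 2-fold change was also asked for, where the enzymes counted 2 lower and 0 higher. In the same 5 genes the groups did not overlap, which held for 29.7% of all tested genes in the lower and 28.4% in the higher direction. The median log2 fold change was -0.27 over the 9 enzymes and -0.0018 over all tested genes. With only 9 genes, these shares describe the enzymes and do not set them apart. An exact permutation test of 3 kidneys against 3 cannot give a two-sided P below 0.1, so tests below are those of the fit over all genes.

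**Figure D1:**
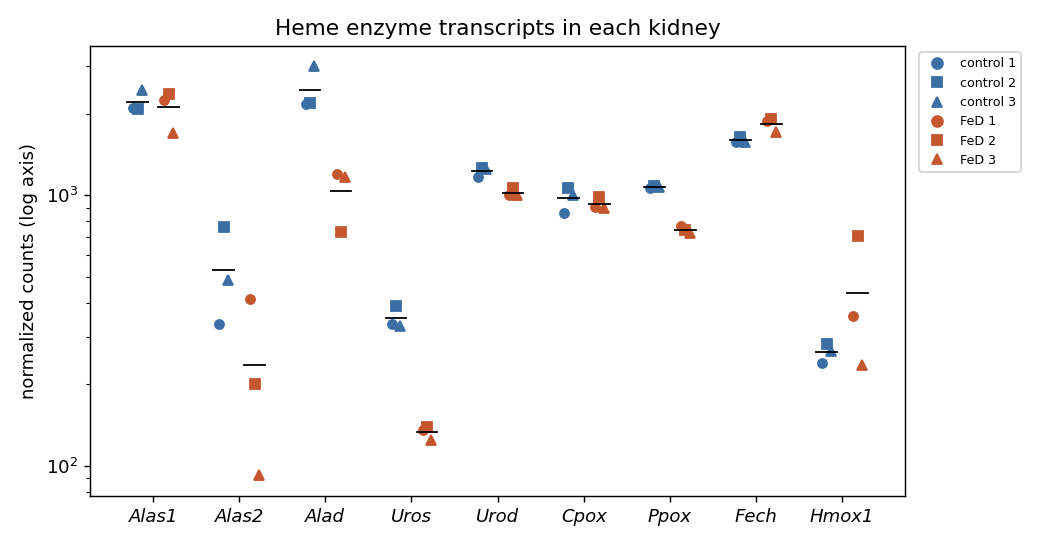
Normalized counts (log axis) of the 9 enzymes in each kidney, in the order of the pathway; blue marks are control kidneys, orange marks FeD kidneys, mark shapes give the replicate number within each group, and black lines are group means. All FeD kidneys lie below all control kidneys for Alad, Uros, Urod and Ppox and above them for Fech, while the groups overlap for Alas1, Alas2, Cpox and Hmox1.

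Alas1 encodes the housekeeping form of 5-aminolevulinate synthase, the enzyme that sets the pace of heme synthesis in most tissues and that heme itself represses. Its normalized counts, which are reads scaled to a common library size, were 2098, 2089 and 2443 in control kidneys and 2253, 2374 and 1698 in FeD kidneys. The highest value was a control kidney and the lowest was FeD 3, and the groups overlapped. The log2 fold change was -0.07 (SE 0.13; adjusted P = 0.67), and its sign turned when control 3 (0.0062) or FeD 3 (0.076) was left out.

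Alas2 encodes the erythroid form of the same enzyme, which is switched on in developing red cells. Its normalized counts were 336, 761 and 488 in control kidneys and 413, 200 and 92.4 in FeD kidneys. FeD 2 and FeD 3 were lower than every control kidney, but FeD 1 lay between control 1 and control 3. The log2 fold change of -1.17 (SE 0.49) was close to that of Alad, but its SE was wider and it did not pass the test (adjusted P = 0.081). Without FeD 1 it was -1.87 (adjusted P = 0.015), and over all 6 ways of leaving out 1 kidney the adjusted P ran from 0.015 to 0.26.

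The Alas2 count has 2 neighbours that bear on it. Along 15.3% of its exon bases, Alas2 (X:146981918-147005181, plus strand, NCBIM37) overlaps Apex2 on the opposite strand, and the strand setting of the counting is not given in the sources used here. Apex2, a DNA repair nuclease, held 153, 157 and 154 normalized counts in control kidneys and 100, 79.2 and 187 in FeD kidneys, and its log2 fold change of -0.32 did not pass the test (adjusted P = 0.38). FeD 3, the kidney lowest in Alas2, was the highest in Apex2. The part of shared reads in the Alas2 values was not tested.

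Whole kidneys hold blood, and in bulk tissue fewer cells of a type and less RNA per cell cannot be told apart. Of 19 red cell markers, 7, all of them hemoglobin genes, were listed at 0 in all 6 kidneys, so the tables give no level for the genes that define a red cell. Of the 7 markers that could be tested, 2 were lower, 0 were higher and 5 did not pass, and the median log2 fold change was -0.84. The 2 were Slc4a1, an anion exchanger that acid-secreting cells of the collecting duct also make (log2 fold change -1.42, adjusted P = 0.0051), and Klf1, an erythroid transcription factor (-0.81, adjusted P = 0.013; adjusted P = 0.055 without control 2). Summed over the list, CPM (counts scaled by library size) were 137 to 193 for control and 49.2 to 94.2 for FeD, most of it from Slc4a1.

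Control 2 stood apart in this list. Without Slc4a1, Klf1, Tal1 and Epb42, the remaining 15 markers, the hemoglobin genes at 0 among them, summed to 2.36, 23.2 and 2.44 CPM in control kidneys and to 2.69, 3.13 and 1.40 CPM in FeD kidneys. Control 2 was the highest kidney in 8 of these 15 markers and also the highest in Alas2, at 42.6 CPM against 18.8 and 27.3 CPM in the other control kidneys. Without control 2 the log2 fold change of Alas2 was -0.82 (adjusted P = 0.26), and the part of red cells in the Alas2 values was not tested.

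The mature Alas2 message carries an iron-responsive element in its 5′ untranslated region, a hairpin to which iron regulatory proteins bind when iron is short. The element is shown with those of ferritin heavy and light chain and of ferroportin (Slc40a1) because all 4 share the CAGTGN loop, written in capitals, with 5 base pairs beside it, and because it acts on translation, which read counts do not measure.
Alas2: tggttcgtcctCAGTGCagggcaacagg
Fth1: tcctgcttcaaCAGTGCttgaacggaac
Ftl1: tcttgcttcaaCAGTGTttgaacggaac
Slc40a1: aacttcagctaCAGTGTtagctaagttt
Positions in NCBIM37 are X:146982002-146986692 (plus strand, with an intron inside the element) for Alas2, 19:10057223-10057250 (plus) for Fth1, 7:52715149-52715176 (minus) for Ftl1 and 1:45982310-45982337 (minus) for Slc40a1. The loop with its 5 pairs was found in the annotated 5′ untranslated regions of 22 of 19854 genes (0.111%), among them 5 of the 10 genes searched for the list of such messages. The 4 shown are those in which the annotated region also holds the bases on both sides of the loop that are printed here. Fth1, which stores iron as ferritin, was higher in FeD kidneys (log2 fold change 0.36, adjusted P = 0.017), a call lost without any 1 of the control kidneys (adjusted P 0.059 to 0.066). Ftl1 (-0.10, adjusted P = 0.52) and Slc40a1, the iron exporter (0.15, adjusted P = 0.18), did not pass.

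Alad, the second enzyme, joins pairs of 5-aminolevulinate into porphobilinogen in the cytosol. Its normalized counts were 2174, 2184 and 2989 in control kidneys and 1202, 732 and 1165 in FeD kidneys. Every FeD kidney lay well below the lowest control kidney, and FeD 2 was the lowest. Alad fell with a log2 fold change of -1.24 (SE 0.20; adjusted P = 0.0015).

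Uros encodes uroporphyrinogen III synthase, which closes the ring with one pyrrole turned round so that the natural isomer forms. Its normalized counts were 336, 389 and 329 in control kidneys and 136, 139 and 124 in FeD kidneys. These were 2 tight groups far from each other, with an SD of 33.1 in control and 7.74 in FeD kidneys (n = 3 each). Uros fell with the largest change of the 9 enzymes, a log2 fold change of -1.40 (SE 0.12; adjusted P = 8.3e-05).

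Urod removes carboxyl groups from the side chains of the ring. It held 1171, 1260 and 1252 normalized counts in control kidneys and 1002, 1061 and 1003 in FeD kidneys. The groups did not overlap, though the gap between them was small. Urod fell with a log2 fold change of -0.27 (SE 0.06; adjusted P = 0.011), a call lost without control 2 (adjusted P = 0.063) or control 3 (adjusted P = 0.051).

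Cpox and Ppox work one after the other on the mitochondrial side. Cpox, coproporphyrinogen oxidase, held 860, 1060 and 997 normalized counts in control kidneys and 904, 984 and 895 in FeD kidneys. All FeD values lay inside the control range, and the log2 fold change was -0.07 (SE 0.09; adjusted P = 0.58). Ppox, which oxidizes the ring to protoporphyrin, held 1067, 1082 and 1069 in control kidneys and 769, 743 and 723 in FeD kidneys. The control values of Ppox were nearly the same, with an SD of 8.24 around a mean of 1072, and every FeD kidney was far below them. Ppox fell with a log2 fold change of -0.53 (SE 0.07; adjusted P = 5.2e-04).

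Fech (18:64616204-64648720, minus strand, NCBIM37), ferrochelatase, inserts iron into protoporphyrin and carries an iron-sulfur cluster. It held 1569, 1633 and 1577 normalized counts in control kidneys and 1879, 1911 and 1711 in FeD kidneys. Fech was the only one of the 9 whose FeD kidneys were all above the control kidneys. It rose with a log2 fold change of 0.20 (SE 0.06; adjusted P = 0.029), the smallest change past the test. The call was lost without any 1 of the control kidneys (adjusted P = 0.10, 0.072 and 0.096 without control 1, 2 and 3) and without FeD 2 (0.052).

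Hmox1 encodes heme oxygenase 1, the inducible enzyme that opens the ring and frees iron, carbon monoxide and biliverdin. Its normalized counts were 240, 282 and 266 in control kidneys and 359, 706 and 236 in FeD kidneys. FeD 2 held more than any other kidney, FeD 1 lay above the control kidneys, and FeD 3 was the lowest of all 6. The log2 fold change was 0.71 (SE 0.34; adjusted P = 0.12). It was 0.20 (adjusted P = 0.41) without FeD 2, and 1.02 (adjusted P = 0.0096) without FeD 3.

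**Figure D2:**
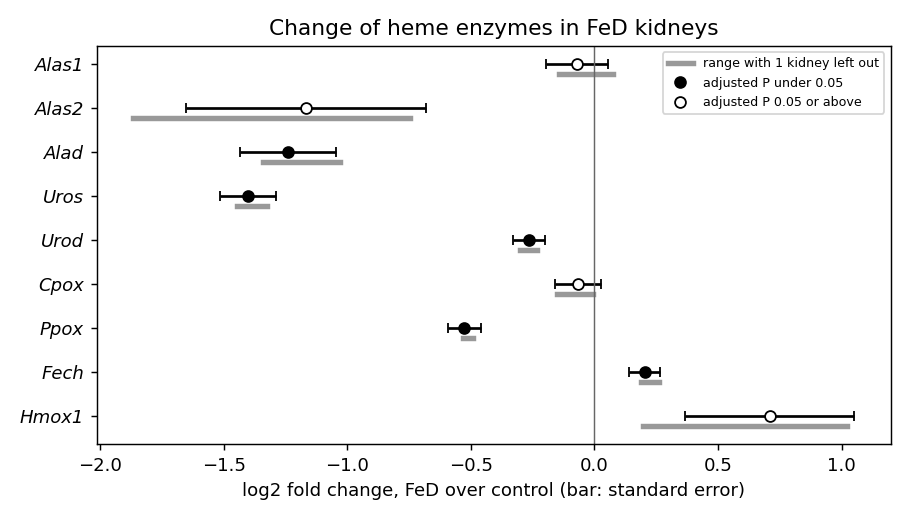
Log2 fold change of each enzyme in FeD over control kidneys (x axis), with bars for the standard error and gray bands for the range when 1 of the 6 kidneys was left out; filled points passed an adjusted P of 0.05. Alad, Uros and Ppox keep narrow bands away from 0, whereas the bands of Alas2 (-1.87 to -0.75) and Hmox1 (0.20 to 1.02) are wide and that of Alas1 crosses 0.

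Macrophages also make Hmox1, and their markers varied beside it. Of 12 tested macrophage and leukocyte markers, 8 were higher, 1 was lower and 3 did not pass, and the median log2 fold change was 0.55. Their summed CPM lay between 177 and 202 for control and between 212 and 250 for FeD, without overlap. Cd68, a lysosomal macrophage protein, rose (log2 fold change 1.12, adjusted P = 0.0010), as did Ctss, a lysosomal protease (1.53, adjusted P = 9.0e-05), whereas Csf1r, a receptor for macrophage growth, fell (-0.45, adjusted P = 0.0060) and Adgre1, which encodes F4/80, did not pass (-0.39, adjusted P = 0.19).

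Cd163, the macrophage receptor for hemoglobin bound to haptoglobin, followed the order of Hmox1 within the FeD group. Cd163 held 4.72, 4.03 and 4.09 CPM in control kidneys and 9.13, 17.1 and 7.59 CPM in FeD kidneys, and Hmox1 held 13.4, 15.8 and 14.9 CPM and 20.1, 39.6 and 13.2 CPM. Mrc1, a mannose receptor, held 11.3, 12.7 and 10.5 CPM and 18.2, 26.0 and 13.8 CPM. In all 3 genes FeD 2 was the highest and FeD 3 the lowest of the FeD kidneys. Cd163 (log2 fold change 1.38, adjusted P = 0.0062) and Mrc1 (0.74, adjusted P = 0.023) passed the test, Mrc1 not without control 1 (adjusted P = 0.069) or control 3 (0.084). Cd68 did not share this order, with 10.8, 9.74 and 11.1 CPM in FeD kidneys. Of the other tested macrophage and leukocyte markers, Csf1r and C1qc had this order too. Ptprc, Lyz2 and Itgam were highest in FeD 3, the FeD kidney lowest in Hmox1. Adgre1, C1qa, C1qb and Ctss had other orders. The part of macrophages in the Hmox1 values was not tested.

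**Figure D3:**
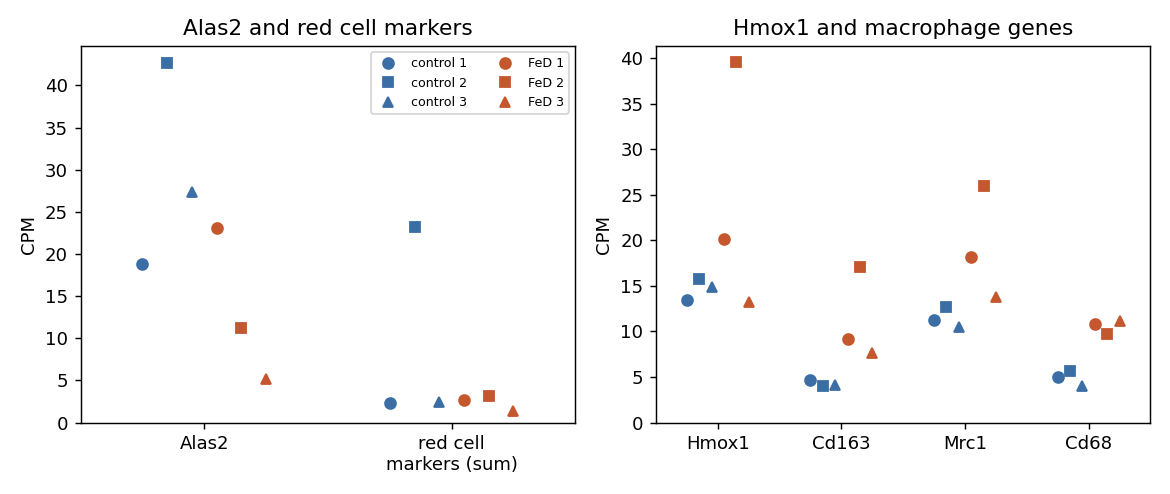
CPM of Alas2 beside the sum of 15 red cell markers (left) and of Hmox1 beside Cd163, Mrc1 and Cd68 (right), 1 mark per kidney. Control 2 stands above the others in both Alas2 (42.6 CPM) and the red cell sum (23.2 CPM), and FeD 2 is the highest kidney in Hmox1, Cd163 and Mrc1 but not in Cd68.

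Scaled to exon length, the enzymes were compared with each other. The length was the union of the exons of all protein-coding transcripts of a gene. It can exceed the length of the message in the kidney, so the order depends on the annotation. Alad stood first in control kidneys at 1927 ± 368 normalized counts per kb of exon (mean ± SD, n = 3), followed by Urod at 825 ± 32.9, Alas1 at 644 ± 58.8, Ppox at 589 ± 4.53 and Fech at 549 ± 12. Cpox at 305 ± 32.1, Alas2 at 259 ± 106 and Hmox1 at 164 ± 13.3 came lower, and Uros was last at 122 ± 11.5. The lowest control value of each enzyme in this order lay above the highest control value of the next, except that the ranges of Cpox and Alas2 and of Alas2 and Hmox1 overlapped.

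In FeD kidneys Alad (813 ± 205 per kb) was still first by its mean but overlapped Urod (686 ± 22.6). Fech was next at 632 ± 37.1, overlapping Alas1 at 614 ± 105, and Ppox followed at 409 ± 12.8. Cpox at 291 ± 15.4 overlapped Hmox1 at 270 ± 152, which overlapped Alas2 at 115 ± 80.1, and Uros remained last at 46.4 ± 2.70, overlapping Alas2. Fech thus stood below both Alas1 and Ppox by its mean per kb in control kidneys and above both in FeD kidneys. Alas2 made up 21.2%, 38.03% and 25.2% of the summed per kb level of both ALAS genes in control kidneys, and 23.6%, 12.4% and 8.39% in FeD kidneys. The 2 groups of shares overlapped, with means of 28.1% ± 8.80 and 14.8% ± 7.87 (SD, n = 3).

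**Figure D4:**
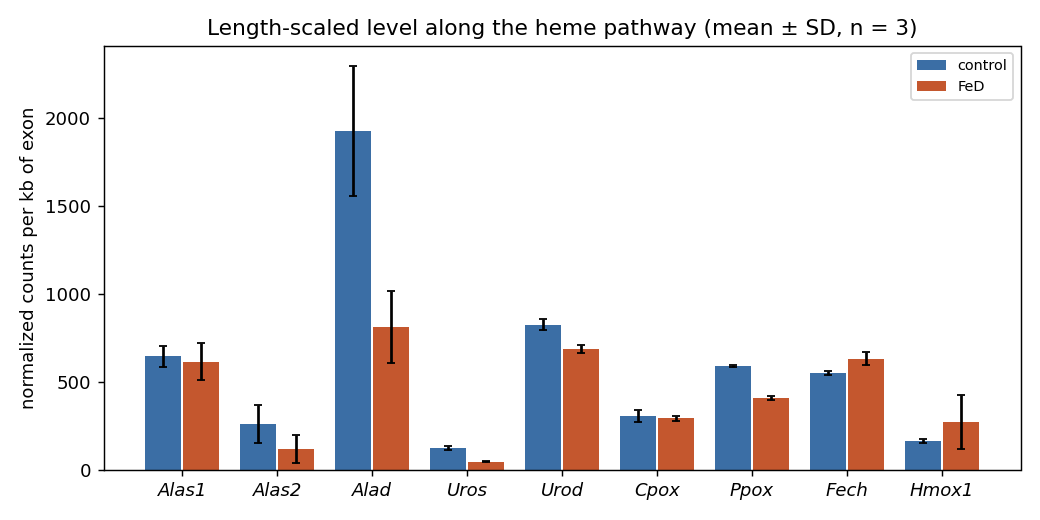
Mean normalized counts per kb of exon for the 9 enzymes in control (blue) and FeD (orange) kidneys, with bars for the SD of 3 kidneys. Alad is the tallest bar in both groups, from 1927 in control to 813 in FeD kidneys, and Uros is the shortest in both.

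The 9 genes lie apart on 8 chromosomes, and only Alad and Urod share one. Besides Alas2 and Fech, they are at, in NCBIM37, 9:106135786-106150457 (minus) for Alas1, 4:62170203-62180952 (minus) for Alad, 7:140877926-140901755 (minus) for Uros, 4:116662570-116667018 (minus) for Urod, 16:58670321-58680504 (plus) for Cpox, 1:173206121-173211317 (minus) for Ppox and 8:77617490-77624495 (plus) for Hmox1. Among these 7 and Fech, no exon overlapped another gene apart from 3.32% of the Alas1 bases, which lie opposite 4930500F10Rik. Stretches of at least 100 bases at 97% identity elsewhere in the genome were found for Urod, in a repeat of up to 114 bases, and for Cpox, at 1 site of 131 bases, so these counts can miss some reads that map to more than 1 place.

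Erythroid genes are often driven by GATA1, whose sites read AGATAA or TGATAA. Promoters from RefSeq (GRCm38.p6) were given for 7 of the 9 enzymes, and none for Fech or Hmox1. Either motif, on either strand, lay within 250 bases before a start of Alas2, Cpox and Uros, as it did in 16.6% of 32851 promoters of that length. These 3 are shown because they hold the motif, in 1 enzyme that fell and in 2 that did not pass the test. The last 150 bases before the start are given on the strand of the gene, with the motif in capitals as it reads on that strand.
Alas2: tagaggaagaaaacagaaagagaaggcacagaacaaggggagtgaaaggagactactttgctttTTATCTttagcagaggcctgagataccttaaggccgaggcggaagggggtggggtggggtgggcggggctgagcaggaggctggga
Uros: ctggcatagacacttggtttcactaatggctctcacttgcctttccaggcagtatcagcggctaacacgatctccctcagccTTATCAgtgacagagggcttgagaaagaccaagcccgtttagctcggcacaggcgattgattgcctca
Cpox: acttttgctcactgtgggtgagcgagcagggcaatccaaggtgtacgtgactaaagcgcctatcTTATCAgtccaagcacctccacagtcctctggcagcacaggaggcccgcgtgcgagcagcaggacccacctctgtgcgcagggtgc
They are X:150547267-150547416 (plus) for Alas2, 7:133702501-133702650 (minus) for the second of the RefSeq starts of Uros and 16:58670058-58670207 (plus) for Cpox, all in GRCm38.p6. The motif lay 86, 68 and 86 bases before the start, in this order. Uros fell and Cpox did not pass the test, and the first start of Uros and the starts of Alas1, Alad, Urod and Ppox held no such letters. The letters ACGTG, the core of a hypoxia response element, were found in the same window of Alad, Uros, Urod and Cpox. In Uros they lay before the first start only, and 16.6% of all promoters held them. The letters TGACNNNGC, to which NRF2 and BACH1 bind with small MAF proteins, were in none of the 7 and in 10.2% of all promoters. Hmox1 had no promoter to search.

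The other genes of heme handling were read in 7 lists by role. Of 75 tested genes in these lists, 19 (25.3%) were higher, 24 (32.0%) were lower and 32 did not pass, and their median log2 fold change was -0.02. Over all tested genes these shares were 22.4% higher and 23.3% lower.

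**Figure D5:**
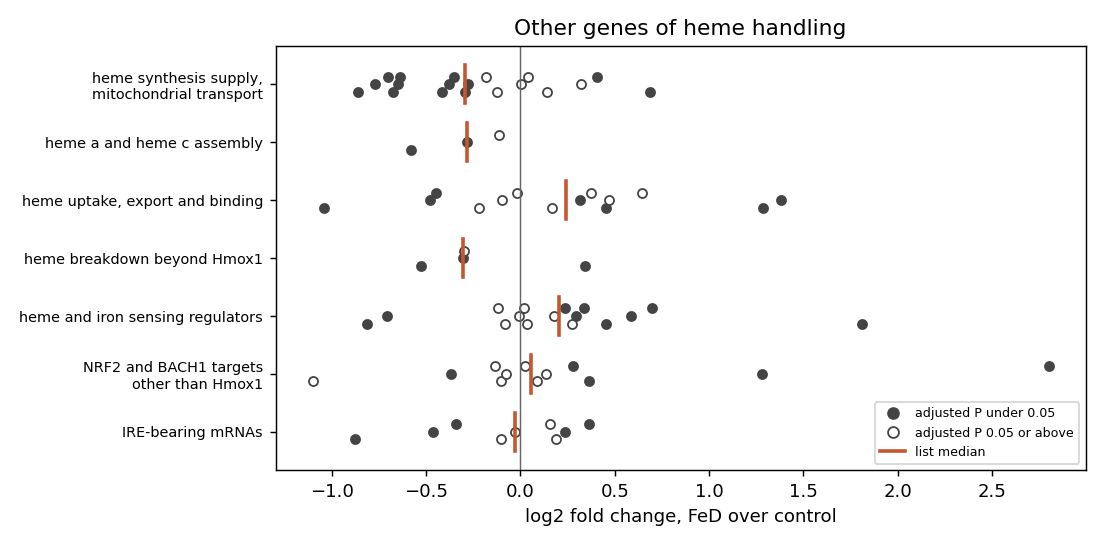
Log2 fold change in FeD over control kidneys (x axis) of the genes in 7 lists of heme handling, 1 point per gene; filled points passed an adjusted P of 0.05 and orange bars are list medians. The supply list lies mostly below 0 with a median of -0.29, and the regulator list mostly above it with a median of 0.20.

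Genes that supply or move the substrates of heme synthesis were mostly lower. Of 19 tested, 11 fell, 2 rose and 6 did not pass, the median log2 fold change was -0.29, and they summed to 2460 to 2600 CPM for control and 1932 to 1962 CPM for FeD. Shmt2, which makes glycine in mitochondria, fell most (-0.86, adjusted P = 2.8e-04), followed by Slc25a39, a mitochondrial glutathione carrier (-0.77, adjusted P = 4.9e-04), and Sucla2, a subunit of succinyl-CoA synthetase (-0.70, adjusted P = 1.2e-04). Slc25a38, which carries glycine into mitochondria for ALAS, did not pass (-0.12, adjusted P = 0.28). Slc6a9, a glycine transporter of the cell membrane, rose (0.69, adjusted P = 0.035), a call lost without any kidney other than FeD 2 (adjusted P up to 0.12).

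The mitochondrial iron importers moved apart. Slc25a37 (mitoferrin 1), best known from red cell precursors, held 694, 818 and 717 normalized counts in control kidneys and 580, 591 and 575 in FeD kidneys and fell (log2 fold change -0.35, adjusted P = 0.011). Slc25a28 (mitoferrin 2), the form of other tissues, held 694, 720 and 743 in control kidneys and 1035, 937 and 884 in FeD kidneys and rose (0.40, adjusted P = 0.0050). Neither pair of groups overlapped. Abcb10, a mitochondrial transporter tied to ferrochelatase, fell (-0.38, adjusted P = 0.0043).

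Of the 3 genes that turn heme into its a and c forms, Cox10 (-0.58, adjusted P = 0.0044) and Cox15 (-0.28, adjusted P = 0.011; 0.061 without control 2) fell and Hccs did not pass (-0.11, adjusted P = 0.30). Markers of mitochondrial content were lower in the same kidneys. Of 12 such genes 10 fell, 1 rose and 1 did not pass, the median log2 fold change was -0.57, and the summed CPM was 10660 to 11790 in control and 7398 to 7883 in FeD kidneys. The part of mitochondrial content in the values of the enzymes was not tested.

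Among 14 genes of heme uptake, export and binding, 4 rose, 3 fell and 7 did not pass, with a median log2 fold change of 0.24. The heme exporter Flvcr1, counted under the symbol Mfsd7b, rose from 474, 500.0 and 521 normalized counts in control kidneys to 1202, 1196 and 1252 in FeD kidneys. This was 2.44 times the control mean, with no overlap and little spread (log2 fold change 1.29, adjusted P = 2.0e-05). Abcg2, a transporter that also exports porphyrins, rose (0.31, adjusted P = 0.0059), as did Lrp1, a receptor for heme bound to hemopexin (0.45, adjusted P = 0.012; 0.057 without control 2), and Cd163 as given above. Slc46a1, a folate and heme importer, fell to 0.484 of control (log2 fold change -1.04, adjusted P = 2.4e-04), and the endocytic receptors of the proximal tubule, Lrp2 (megalin, -0.48, adjusted P = 0.0019) and Cubn (cubilin, -0.45, adjusted P = 0.0022), fell too.

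Proximal tubule markers as a whole were lower in FeD kidneys: 10 of 13 fell, 0 rose and 3 did not pass, with a median log2 fold change of -1.08. Their summed CPM was 11660 to 12590 in control and 6021 to 6469 in FeD kidneys. Slc34a1, the phosphate transporter of this segment, had a log2 fold change of -2.22 (adjusted P = 1.7e-05) and Slc5a2, a glucose transporter, one of -4.89 (adjusted P = 3.3e-06). Slc34a1 still held 13453 to 17767 normalized counts in FeD kidneys against 68147 to 74285 in control kidneys, so a defining gene of the labelled tissue was present in each library. Of 10 markers of other kidney segments and cells, 2 rose, 3 fell and 5 did not pass. Of 4 liver genes, Ttr (1.85) and Serpina1a (1.52) rose on the log2 scale, and Alb and Apoa1 did not pass. The part of these proximal tubule levels in the values of the enzymes was not tested.

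Of the 4 other genes of heme breakdown, 1 rose, 2 fell and 1 did not pass, with a median of -0.30 on the log2 scale. Hmox2, the constitutive heme oxygenase, held 917, 894 and 946 normalized counts in control kidneys and 691, 687 and 852 in FeD kidneys and fell (log2 fold change -0.30, adjusted P = 0.035). Blvra, which reduces biliverdin to bilirubin, held 769, 843 and 735 and 1098, 1028 and 852 and rose (0.34, adjusted P = 0.031). Both calls were lost when any kidney other than FeD 3 was left out (adjusted P up to 0.13 for Hmox2 and 0.12 for Blvra). Blvrb did not pass (-0.30, adjusted P = 0.17), and Por, the reductase that feeds electrons to heme oxygenase and to cytochrome P450 enzymes, fell (-0.53, adjusted P = 0.0052).

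Of 16 tested genes in the list of heme and iron sensors and other regulators, 7 rose, 2 fell and 7 did not pass. One of the 2 that fell was Klf1, which is also in the red cell list above. Bach1, a repressor of Hmox1 that heme releases from DNA, held 833, 772 and 763 normalized counts in control kidneys and 1131, 1111 and 1310 in FeD kidneys and rose (log2 fold change 0.59, adjusted P = 0.0011). Its small MAF partners Maff (1.81, adjusted P = 5.2e-05) and Mafk (0.70, adjusted P = 0.0014) rose, and Mafg did not pass (0.18, adjusted P = 0.22). Ppargc1a, a coactivator that induces Alas1 in fasting liver, rose (0.30, adjusted P = 0.0049). Ireb2, an iron regulatory protein, rose (0.45, adjusted P = 7.1e-04) while Aco1, the other one, fell (-0.71, adjusted P = 1.5e-04). Eif2ak1, the kinase that halts globin translation when heme is short, was at -0.01 and did not pass (adjusted P = 0.93).

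Hmox1 shares its activator NRF2 with a group of antioxidant genes. The NRF2 gene Nfe2l2 rose slightly (log2 fold change 0.23, adjusted P = 0.025), a call lost without any 1 of the control kidneys (adjusted P 0.059 to 0.10) and with the replicate number as a block (0.051). Of 12 such targets, 4 rose, 1 fell and 7 did not pass, with a median log2 fold change of 0.06. Gclc, the catalytic subunit of glutathione synthesis, rose from 2575, 2543 and 2728 normalized counts in control kidneys to 6307, 5893 and 6848 in FeD kidneys (log2 fold change 1.28, adjusted P = 2.5e-05). Its partner Gclm was at 0.02 (adjusted P = 0.87), and Srxn1 (0.09, adjusted P = 0.59) and Txnrd1 (-0.08, adjusted P = 0.29) did not pass either. Gsta1, a glutathione transferase of low counts, rose from 7.7, 3.3 and 2.7 to 43.0, 32.5 and 22.4 (2.80, adjusted P = 0.0018). Nqo1 rose slightly (0.28, adjusted P = 0.030), a call lost without any 1 of the control kidneys (adjusted P 0.077 to 0.12).

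Of 9 other messages with an iron-responsive element, 2 rose, 3 fell and 4 did not pass, with a median log2 fold change of -0.03. Tfrc, the transferrin receptor whose message is held stable by iron regulatory proteins, held 6058, 6239 and 7050 normalized counts in control kidneys and 4898, 4546 and 4564 in FeD kidneys and fell (-0.47, adjusted P = 0.0021). Epas1, which encodes HIF-2 alpha, fell (-0.34, adjusted P = 0.0044), and Cdc42bpa was the other message that rose with Fth1 (0.24, adjusted P = 0.031), not without any 1 of the control kidneys (adjusted P 0.075 to 0.11).

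Some genes followed the kidney to kidney pattern of Alas1, Alas2 and Hmox1 closely, among 12932 genes whose normalized counts averaged 50 or more. By Pearson's r of log2 CPM over the 6 kidneys, Alas1 was most like Smarcd1, Npff, Mreg, Pctp and Aebp1 (r from 0.996 down to 0.984), Alas2 like Crls1, Pdk2, Zfp438, Rbm42 and Fibp (0.997 to 0.987), and Hmox1 like Sf3b2, Lgals8, Tmbim1, Cdk5rap1 and Dnase2a (0.996 to 0.990). With 6 kidneys, 2 diets and so many genes, likeness of this size is a description only. No gene of the red cell list was among the 5 nearest to Alas2.

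Libraries held 13732173 to 20853293 counts, and 3 counts, taken as the smallest signal a library can show, equalled 0.144 to 0.218 CPM. All 9 enzymes lay far above this floor in all 6 kidneys, the lowest being Alas2 in FeD 3 at 5.17 CPM. Reads carry no molecular identifiers, so the floor covers counting error only. FeD kidneys differed more among themselves than control kidneys did. The chi-square of their counts, divided by its degrees of freedom, was 12.1 to 32.0 for FeD pairs and 3.86 to 7.63 for control pairs. No 2 libraries of the same group were alike within sampling noise.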

How the data were processed

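Raw counts per gene and kidney were deposited by the authors, without normalization or pooling. Per the labels, the study's methods and the submitters' processing notes, polyadenylated RNA was sequenced from TruSeq libraries, base calls came from CASAVA 1.8.2, reads were trimmed with Trimmomatic and aligned to mm9 with TopHat2 2.0.11, and HTSeq counted reads. The gene annotation, counting mode and strand setting are not given in the sources used here. Groups and replicate numbers came from the labels, and the enzyme of the remaining step of heme synthesis is not reported here.

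Counts of 24422 symbols were read into edgeR 4.0.16 (R 4.3.3): filterByExpr left 15145 genes, all 9 enzymes among them, library sizes were scaled by TMM, and FeD was compared with control by the quasi-likelihood test (glmQLFit, glmQLFTest) with Benjamini-Hochberg adjustment over all tested genes. The SE is the log2 fold change divided by the square root of F. Normalized counts are TMM-scaled counts at the mean library size. All P values are two-sided. The labels call the 3 kidneys of a group biological replicates, and P values measure the spread between them. Exon lengths, positions and iron-responsive elements came from the NCBIM37 genome with GENCODE M1, which is the build of the reads, and 20608 symbols matched a single gene there. Copies were searched with BLAST 2.17.0. Promoters came from RefSeq on GRCm38.p6 and were used for sequence only.

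The enzymes, the gene lists and the tests were chosen with earlier results of these data known. Named are all 9 enzymes, genes of the lists by size of change or as defining genes, and the 5 genes most like Alas1, Alas2 and Hmox1. Apex2 and 4930500F10Rik are named for their overlap, and other list genes were chosen after their values were seen. Alternatives were other scalings (DESeq2 size factors, library size alone), no filter or at least 10 counts in every library, the DESeq2 1.42.0 Wald test, the replicate number as a block, hemoglobin genes left out, and each kidney left out in turn. The fit was tested on simulated data.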

Additional observations from a re-analysis of the deposited data

How the results depend on the processing

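Each of the 9 enzymes was refitted under 13 alternatives, which gave 117 values. Of these, 107 kept their direction and their side of the threshold, 6 lost a call (Fech 4 and Urod 2), 2 gained one and 2 changed sign. Alad, Uros and Ppox kept their calls under all 13, with log2 fold changes of -1.34 to -1.03, -1.45 to -1.33 and -0.53 to -0.49. All changes of call or sign came from leaving out 1 kidney. The number of enzymes past the adjusted P in the higher direction was then 0 to 2 in place of 1, and with a 2-fold change 0 to 1 in place of 0. It was 0 without control 1, 2 or 3 or FeD 2, and 2 without FeD 3, where Fech and Hmox1 passed. Alas1, at -0.07 with all kidneys, ran from -0.1428 to 0.0759 without 1 kidney and changed sign without control 3 (0.0062) and without FeD 3 (0.0759). The cause was not tested. The summed red cell markers, most of the sum from Slc4a1, had a log2 ratio of -1.28, and of -1.62 to -1.07 without 1 kidney. Without Slc4a1, Klf1, Tal1 and Epb42 the sum was 2.36, 23.2 and 2.44 CPM in control kidneys. In FeD kidneys that smaller sum was 2.69, 3.13 and 1.40 CPM, so only control 2 lay outside the FeD range. The 7 lists of heme handling counted 13 to 21 higher and 20 to 25 lower genes without 1 kidney. With the replicate number as a block, 1 enzyme was higher and 4 were lower, as without it, Alas2 was at -1.31 (edgeR adjusted P = 0.060), and the lists counted 18 higher and 24 lower genes. Same-numbered kidneys did not deviate together (correlations of -0.16, 9.57e-05 and -0.03), so the block is a shared number and no known pairing. Hemoglobin genes were at 0 throughout, so leaving them out changed no value. With 3 kidneys a group, depth did not limit the enzymes, but the spread of the FeD kidneys limits what can be said of Alas2 and Hmox1.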
